A study of Mus musculus with 4 samples.

Results

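The Wnt ligands, their receptors and their secreted antagonists were followed through the transcriptomes of cultured mouse mammary tumour cells. The genes were taken by symbol: the numbered Wnt, Fzd, Dkk, Sfrp and Rspo genes together with Dkkl1, Lrp5, Lrp6, Wif1, Ror1, Ror2, Ryk, Porcn, Wls, Kremen1 and Kremen2. This gave 52 of the 23361 genes in the deposited table, of which 19 were ligands, 10 Frizzled receptors, 10 secreted antagonists and 4 R-spondins. The High group held 2 libraries, 1 from each of the add-back clones AB-C1 and AB-C2, in which a lentiviral vector was used to overexpress Arid1a, a subunit of the BAF chromatin remodelling complex. The Low group held 2 libraries of the tumour cells 23116 MT, the control line with low Arid1a. All cells shared the C3HeB/FeJ strain and an origin in the Chaos3 mouse, a model with a mutant allele of the helicase subunit Mcm4. The table numbers the libraries within each group without saying which High library is which clone, so the numbers 1 and 2 below only name libraries. Each clone is a single line with a single library, and the effect of the vector and the choice of clones cannot be told apart.

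Wnt proteins are secreted lipid-modified signals. The acyltransferase Porcn attaches the lipid, the carrier Wls takes the ligand to the surface, and Frizzled receptors bind it there, either with the co-receptors Lrp5 and Lrp6, which leads to stabilised beta-catenin, or in beta-catenin-independent signalling with Ror and Ryk receptors. Sfrp proteins and Wif1 bind the ligands, and some Dkk proteins can block Lrp5 and Lrp6 with the help of Kremens. R-spondins raise the amount of receptor at the surface by way of Lgr receptors. In the mammary gland the pathway is known for its part in branching and in the maintenance of basal progenitor cells, and Wnt4 is known there as a target of progesterone signalling.

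The libraries held 16523077 and 24307249 fragments in the High group and 13889856 and 28110812 in the Low group. Between replicates, edgeR's coefficient of biological variation came to 42.4% for the High pair and 17.3% for the Low pair, so the High libraries stood apart from each other. Arid1a itself was at 6.16 and 7.22 FPKM (fragments per kilobase of transcript, scaled to library size, as deposited) in the High libraries against 10.2 and 11.7 FPKM in the Low libraries. It was thus not higher under the High label (log2 fold change -0.71 ± 0.23 (SE), edgeR adjusted p = 0.165), and whether the vector's transcript was counted is not given in the sources used here. For that reason every direction below is one between the libraries labelled High and those labelled Low. Epithelial markers summed to 1736 and 4541 FPKM over 11 genes in the libraries labelled High and 2047 and 1390.4 FPKM in those labelled Low. Krt14 led these sums in every library, and Krt5 had 0 fragments in High library 1. All 11 were tested. Of these, 6 were higher in both High libraries than in both Low libraries, where 25.9% of all tested genes were. The other 5 overlapped. Fibroblast markers summed to 282 and 99.4 FPKM over 9 genes in High, against 1314 and 1169.7 FPKM in Low. Of the 7 tested, 5 were lower in both High libraries than in both Low libraries, where 25.1% of all tested genes were. Pdgfra overlapped, and Dcn was higher in High, at 118 and 11.5 FPKM against 2.48 and 3.4 FPKM in Low. The 7 leukocyte markers summed to 7.22 and 7.96 FPKM in High and 3.36 and 3.48 FPKM in Low, mostly from Csf1r. The leukocyte genes Cd3e and Emr1 and the adipocyte genes Plin1 and Lep were at 0 in every library, and no endothelial marker exceeded 17 fragments in any library. The part of these markers in the results below was not tested. In bulk RNA, fewer cells of a type and less RNA per cell cannot be told apart.

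Several ligands and the ligand-modifying enzyme Porcn were more abundant in the libraries labelled High, while the antagonist Dkk2 and the R-spondin Rspo3 were almost absent from them. Of the 52 genes, 33 passed the filter on low counts, and among these Wnt4, Wnt6, Wnt7a and Porcn rose and Dkk2 and Rspo3 fell past an adjusted p of 0.05 in edgeR's quasi-likelihood test over all 12987 genes tested. These 6 calls stand beside a share of 2.47% called among all tested genes, 1.14% higher and 1.33% lower. A further 27 tested genes did not pass, and 13 of the 33 had an unadjusted p under 0.05, where 18.1% of all tested genes did. The median log2 fold change was 0.19 over the 33 genes and 0.03 over all genes tested. Dkk2, Rspo3, Ror2, Wnt5b, Sfrp4 and Wnt6 passed the filter only through the group in which they were high. These counts therefore describe the genes and support no statement about the family. Calls, but not fold changes, depended on having both Low libraries. The edgeR fits without Low library 1 or without Low library 2 each left 1 library in the Low group. The spread then came from the High pair alone, and no gene of the 12987 was called. The log2 fold changes without Low library 1 or Low library 2 were 2.71 and 2.65 for Wnt4, 4.59 and 5.25 for Wnt6, and 1.58 and 1.29 for Porcn. Without High library 1 or High library 2 they were 2.85 and 2.48 for Wnt4, 5.02 and 4.55 for Wnt6, and 1.48 and 1.39 for Porcn. In 11 of the 33 genes both High libraries lay above both Low libraries, and in 9 below, where 25.9% and 25.1% of all tested genes did so (51.0% in either direction).

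**Figure D1:**
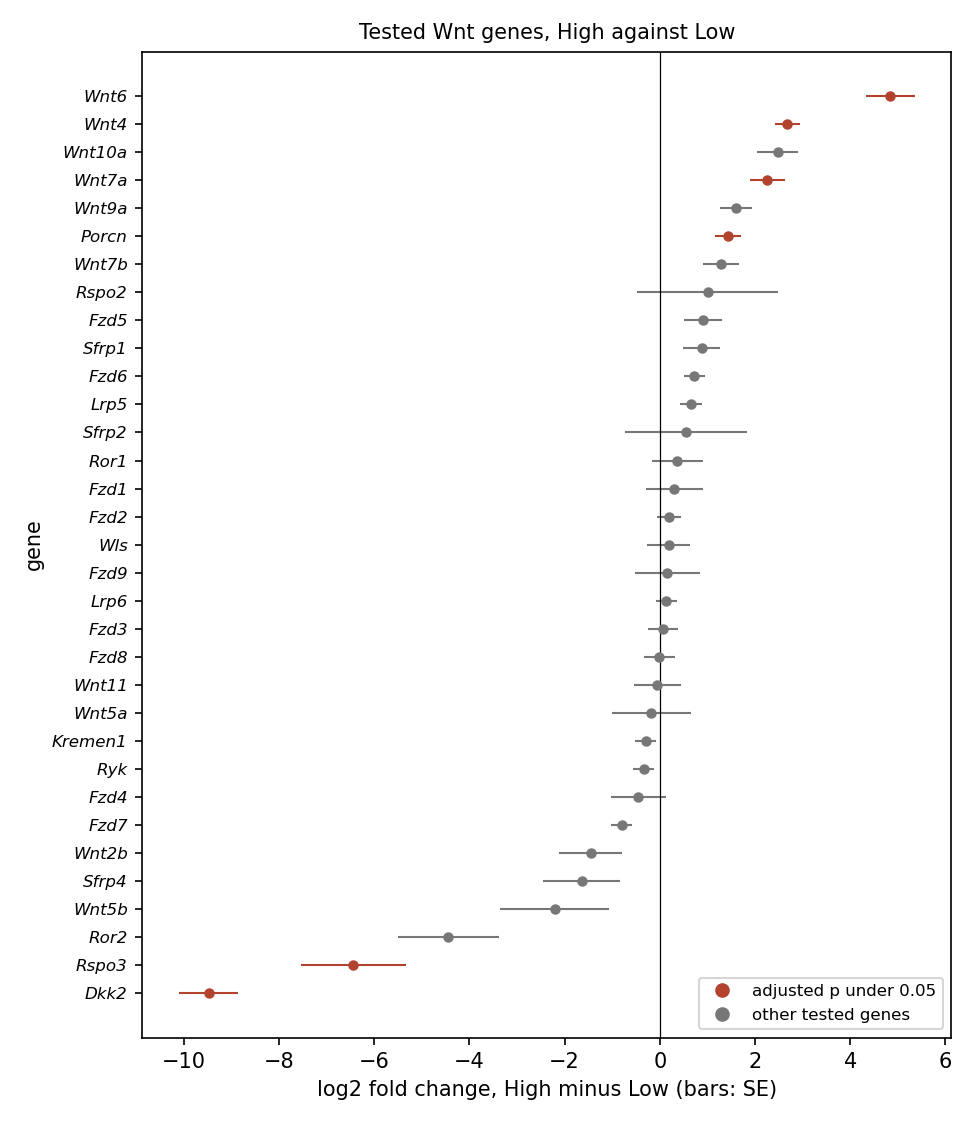
Log2 fold change of the tested Wnt genes between the 2 libraries labelled High and the 2 labelled Low, with positive values higher in High. Points are edgeR estimates, bars are SE and red marks an adjusted p under 0.05. Wnt6, Wnt4, Wnt7a and Porcn lie to the right and Dkk2 and Rspo3 to the far left, where the estimates rest on 2 and 1 fragments in the High libraries.

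The promoters of Wnt6 and Wnt7a, which rose, and of Dkk2, which fell, are shown because their letters differ. They are given as the 250 bases before the RefSeq start (GRCm38.p6, which shares its coordinates with mm10), 5′ to 3′ on the gene's own strand, with matches to the GC box CCGCCC and to TATAAA, on either strand, in capitals.
Wnt6 promoter, chr1:74771642-74771891, plus strand: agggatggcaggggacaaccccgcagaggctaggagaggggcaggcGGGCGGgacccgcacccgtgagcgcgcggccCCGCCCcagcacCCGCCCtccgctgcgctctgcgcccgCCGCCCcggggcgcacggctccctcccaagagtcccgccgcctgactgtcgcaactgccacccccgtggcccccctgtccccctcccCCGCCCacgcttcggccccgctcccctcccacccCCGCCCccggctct
Wnt7a promoter, chr6:91411354-91411603, minus strand: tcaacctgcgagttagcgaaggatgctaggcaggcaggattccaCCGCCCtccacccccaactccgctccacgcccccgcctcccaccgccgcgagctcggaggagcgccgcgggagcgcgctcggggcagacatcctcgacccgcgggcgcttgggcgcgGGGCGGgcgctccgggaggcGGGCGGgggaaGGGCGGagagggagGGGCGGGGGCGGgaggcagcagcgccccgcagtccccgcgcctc
Dkk2 promoter, chr3:132085042-132085291, plus strand: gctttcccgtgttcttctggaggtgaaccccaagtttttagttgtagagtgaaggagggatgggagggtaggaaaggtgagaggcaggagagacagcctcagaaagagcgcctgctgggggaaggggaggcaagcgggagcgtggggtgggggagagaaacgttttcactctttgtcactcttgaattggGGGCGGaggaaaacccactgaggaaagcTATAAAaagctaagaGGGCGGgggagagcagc
The Wnt6 and Wnt7a windows each held 6 GC boxes and no TATAAA, at 79.6% and 77.6% G and C. The Dkk2 window held 2 GC boxes and had a TATAAA beginning 32 bases before the start, at 55.6% G and C. Among 32851 RefSeq promoters of the same length, 32.7% held at least 1 GC box, 0.886% held 6 or more, and 12.4% held TATAAA. The TCF/LEF core CTTTGNT, present in 16% of all promoters, and the AP-1 letters TGANTCA, present in 6.75%, did not occur in these 3 windows. Of the 52 genes, 34 had a promoter in the table, and the called genes Porcn and Rspo3 were not among them. TATAAA was not particular to genes that fell: besides Dkk2 it occurred in the windows of Dkk1, Fzd1, Ryk, Wif1 and Wnt11. Of these, Fzd1, Ryk and Wnt11 were tested and not called, while Dkk1 and Wif1 were not tested. Windows with 6 or more GC boxes were not particular to genes that rose: besides Wnt6 and Wnt7a they were those of Wnt4, Wnt3a, Fzd4, Fzd5 and Fzd7. Of these, Wnt4 was called, Fzd4, Fzd5 and Fzd7 were tested and not called, and Wnt3a was not tested. The GENCODE start of Wnt7a lies inside its printed window, so that the end of this window is transcript in that annotation.

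Among the ligands, Wnt4 rose with the smallest error. Wnt4 (chromosome 4, 137277489 to 137299726, mm10) was at 19.7 and 25.6 FPKM in the libraries labelled High, against 3.65 and 3.49 FPKM in those labelled Low. Both High libraries were far above both Low libraries, which lay close together. The means were 22.7 ± 4.19 FPKM in High and 3.57 ± 0.111 FPKM in Low (SD, n = 2 each), and edgeR gave a log2 fold change of 2.68 ± 0.26 (SE, adjusted p = 0.00412). GENCODE transcripts of Wnt4 share stretches of up to 169 bases, at 95% identity or more, with 178 other genes, so that fragments in those stretches are uncertain.

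Wnt6, a ligand of epithelia, was the lowest of the tested ligands in both Low libraries and rose by the largest factor among the called ligands. Wnt6 (chromosome 1, 74771892 to 74785322, mm10) had 204 and 406 fragments in the libraries labelled High and 5 and 16 in those labelled Low, which corresponds to 6.29 and 8.74 FPKM in High and 0.196 and 0.312 FPKM in Low. The groups did not overlap, and the log2 fold change of 4.84 ± 0.51 (SE) was 28.7-fold (adjusted p = 0.00589).

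Wnt10a follows Wnt6 on the same strand, with 6193 bases between the genes. Its level was 44.0 and 98.6 FPKM in the libraries labelled High, against 14.8 and 11.1 FPKM in those labelled Low. Both High libraries were above both Low libraries, but the High libraries differed between themselves, and the log2 fold change of 2.48 ± 0.43 (SE) narrowly missed the threshold (adjusted p = 0.0504). Under edgeR with the RLE size factors it passed, as it did with total-count scaling and with DESeq2. It did not pass in limma-voom (adjusted p = 0.0548) or in limma on log2(FPKM + 1) (adjusted p = 0.0527). The other neighbouring ligand pairs held at most 1 expressed gene. Wnt9a was expressed beside Wnt3a, which was at 0 throughout. Wnt10b with Wnt1, and Wnt9b with Wnt3, stayed at 5 fragments or fewer in every library.

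Wnt7a, known from limb and female reproductive tract patterning, was at 12.5 and 21.5 FPKM in the libraries labelled High, against 4.27 and 2.92 FPKM in those labelled Low. The groups were clear of each other, with a log2 fold change of 2.26 ± 0.36 (SE), or 4.79-fold (adjusted p = 0.0259). Limma on log2(FPKM + 1) did not call it. Its paralog Wnt7b was the most abundant ligand in all 4 libraries, at 45.7 and 99.3 FPKM in High and 31.4 and 28.2 FPKM in Low. Wnt7b was higher in both High libraries but unequally so, and it did not pass in edgeR (log2 fold change 1.29 ± 0.38 (SE), adjusted p = 0.154), while DESeq2 called it (adjusted p = 0.0184). Wnt9a had 6.06 and 8.65 FPKM in High and 2.37 and 2.51 FPKM in Low, a log2 fold change of 1.6 ± 0.33 (SE) that missed the threshold in edgeR (adjusted p = 0.0549). Wnt9a was called by DESeq2 (adjusted p = 0.00097), and by edgeR with total-count scaling (adjusted p = 0.0456) or with no filter on low counts (adjusted p = 0.00839). It was not called by edgeR with the RLE size factors (adjusted p = 0.0546), by limma-voom (adjusted p = 0.0794) or by limma on log2(FPKM + 1) (adjusted p = 0.0941).

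The ligand Wnt5a, best known for beta-catenin-independent signalling, split the High libraries. It was at 27.7 and 5.41 FPKM in the libraries labelled High, against 18.2 and 20 FPKM in those labelled Low. High library 1 lay above and High library 2 below both Low libraries. Its close relative Wnt5b was lower in both High libraries, at 0.716 and 0.042 FPKM, than in the Low libraries, at 1.72 and 1.90 FPKM. The Wnt5b locus overlaps the protein-coding gene Fbxl14, and how fragments in the overlap were counted is not known. Wnt2b showed 0.239 and 0.274 FPKM in High and 0.650 and 0.765 FPKM in Low, and Wnt11 showed 1.85 and 2.84 FPKM in High and 3.25 and 1.69 FPKM in Low. Wnt5b, Wnt2b and Wnt11 did not pass the test.

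The make-up of the ligand pool, summed per length over all 19 genes, was 165 and 271 FPKM in the libraries labelled High and 80.5 and 72.9 FPKM in those labelled Low. Wnt7b gave 27.6% and 36.6% of it in High and 39.0% and 38.7% in Low. The share of Wnt10a was 26.6% and 36.4% in High, against 18.3% and 15.2% in Low. Wnt5a made up 16.8% and 1.99% in High and 22.6% and 27.4% in Low. With 2 libraries a group, an exact permutation test cannot go below p = 0.333, so no test of these sums is given.

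The other 9 ligands did not pass the filter. Wnt3a, Wnt8b and Wnt9b had 0 fragments in every library, where 3 fragments would correspond to 0.122 to 0.175 CPM (fragments scaled to library size) in the High libraries and 0.11 to 0.22 CPM in the Low libraries. Wnt2 had 11 and 1 fragments in the libraries labelled High and 0 in both Low libraries. Wnt1 had 4 and 3 fragments in High and 0 in Low. Wnt10b, Wnt16, Wnt3 and Wnt8a had at most 5 fragments in any library.

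**Figure D2:**
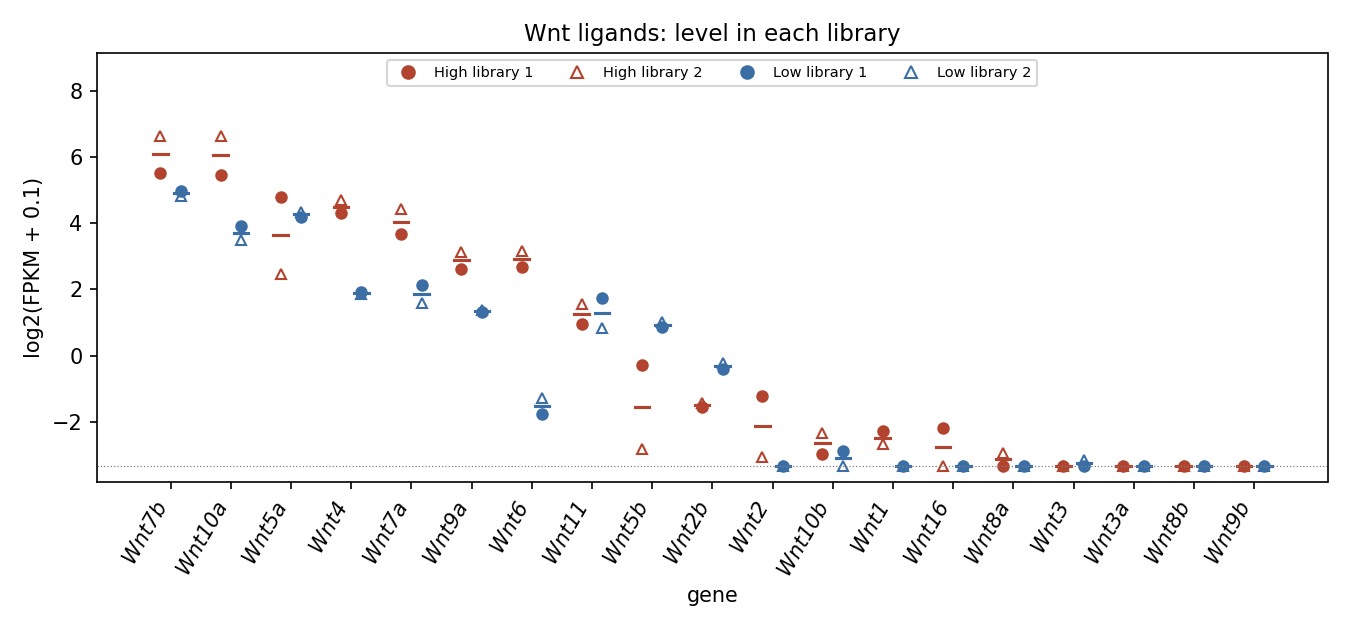
Level of each Wnt ligand in each library, as log2(FPKM + 0.1), ordered by mean level. Filled circles and open triangles are libraries 1 and 2 of each group, short bars are the means of the plotted values and the dotted line marks 0 FPKM. Wnt4, Wnt6, Wnt7a, Wnt9a, Wnt10a and Wnt7b have both High libraries above both Low libraries, while Wnt5a has its Low libraries between the High ones.

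In ligand secretion, Porcn rose and Wls did not pass the test. Porcn (chromosome X, 8193848 to 8206525, mm10) was at 21.3 and 22.6 FPKM in the libraries labelled High, against 9.03 and 7.38 FPKM in those labelled Low. The High libraries lay close together and clear of the Low libraries, with a log2 fold change of 1.43 ± 0.27 (SE), or 2.70-fold (adjusted p = 0.0421). Of 13 other settings, 7 kept the Porcn call, limma-voom not among them, and the adjusted p ranged between 6.93e-05 and 0.726. Wls was at 146 and 57.4 FPKM in High and 83.5 and 95 FPKM in Low, so that the Low libraries lay between the High ones.

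No Frizzled passed the test between the groups, where 2.47% of all tested genes did. Of the 9 tested, 2 had an unadjusted p under 0.05, beside 18.1% of all tested genes. Fzd6 was at 23.4 and 22.2 FPKM in the libraries labelled High, against 13 and 14.8 FPKM in those labelled Low. Fzd7, known from mammary and intestinal progenitor cells, was at 11.1 and 9.53 FPKM in High and 17.7 and 18.4 FPKM in Low. The groups did not overlap for either gene, in opposite directions, but the log2 fold changes of 0.72 ± 0.22 (SE) for Fzd6 and -0.80 ± 0.22 (SE) for Fzd7 missed the threshold (edgeR adjusted p = 0.146 and 0.121), with DESeq2 calling Fzd7. Fzd2 was the most abundant Frizzled in 3 of the libraries, at 26.3 and 23.4 FPKM in High and 25.8 and 17.7 FPKM in Low.

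Fzd1 was the Frizzled that separated the High libraries, at 21.9 and 6.42 FPKM, around Low values of 11.1 and 12.1 FPKM. Fzd5 was at 3 and 1.61 FPKM in High and 1.32 and 1.17 FPKM in Low. The remaining tested Frizzleds, Fzd3, Fzd4, Fzd8 and Fzd9, overlapped between the groups at 0.600 to 3.91 FPKM in High and 0.666 to 4.43 FPKM in Low. Fzd10 had 0 and 2 fragments in the High libraries and 0 in both Low libraries. The summed Frizzled level was 94.6 and 71.5 FPKM in High, against 77.6 and 73.1 FPKM in Low.

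The co-receptor Lrp5 was at 32.1 and 26.4 FPKM in the libraries labelled High and 19.8 and 17.8 FPKM in those labelled Low. It was higher in both High libraries without passing (log2 fold change 0.65 ± 0.23 (SE), edgeR adjusted p = 0.194). Lrp6, which acts in the same complex, was at 15.6 and 14.2 FPKM in High and 12.4 and 15.1 FPKM in Low, and its groups overlapped. Fragments of Lrp6 are uncertain in stretches of up to 174 bases shared with 136 other genes.

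Of the receptors with kinase-type domains, Ror2, a receptor for Wnt5a, was low in both High libraries. It had 12 and 1 fragments in the libraries labelled High, against 119 and 185 in those labelled Low, or 0.183 and 0.0107 FPKM in High and 2.31 and 1.78 FPKM in Low. The groups did not overlap, and the log2 fold change of -4.45 ± 1.06 (SE) missed the threshold in edgeR (adjusted p = 0.0982), while DESeq2 called it. Ror1 was at 1.93 and 1.01 FPKM in High and 0.962 and 1.32 FPKM in Low. Ryk, a catalytically inactive member, was the most abundant of these receptors, at 59.6 and 51.3 FPKM in High and 69.8 and 71.4 FPKM in Low, and neither Ror1 nor Ryk passed the test.

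**Figure D3:**
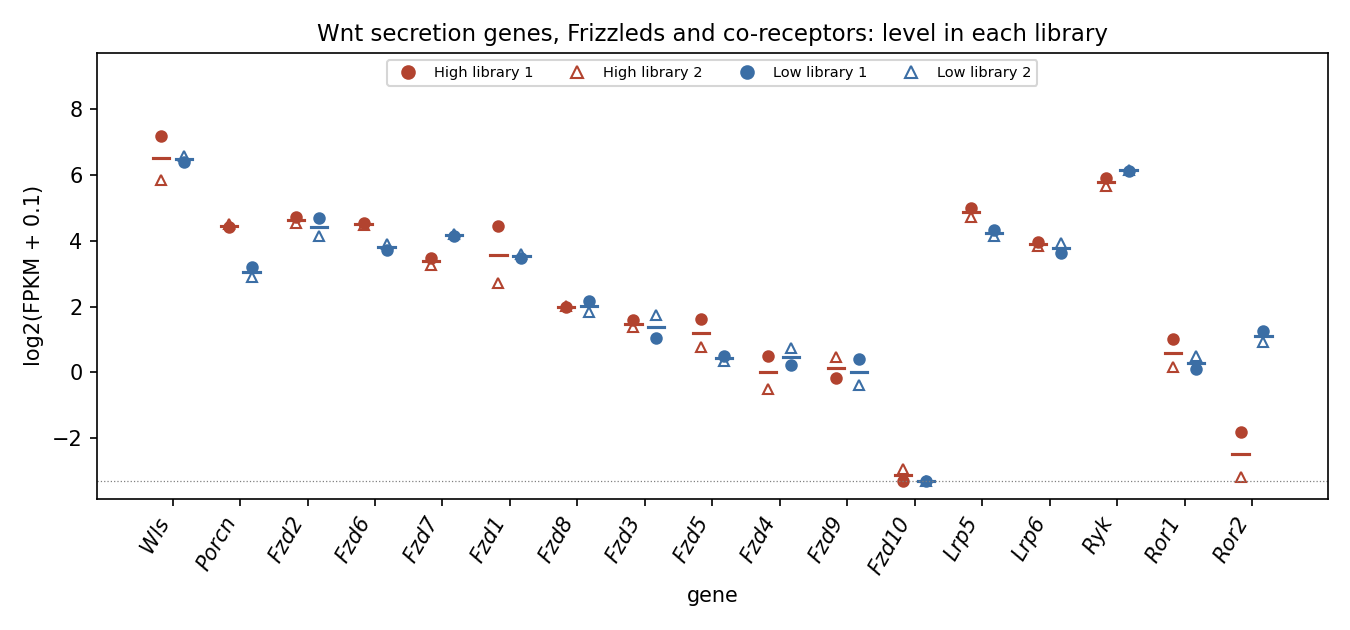
Level of the secretion genes, Frizzleds, co-receptors and Ror and Ryk receptors in each library, as log2(FPKM + 0.1), ordered by mean level within each class. Filled circles and open triangles are libraries 1 and 2 of each group, short bars are means and the dotted line marks 0 FPKM. Porcn and Ror2 separate the groups in opposite directions, and Wls and Fzd1 have their Low libraries between the High ones.

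Dkk2, an antagonist that binds Lrp5 and Lrp6, was almost absent from the libraries labelled High. Dkk2 (chromosome 3, 132085292 to 132180304, mm10) had 0 and 2 fragments in the libraries labelled High, against 511 and 1053 in those labelled Low. It was at 10.6 and 10.9 FPKM in the Low libraries, where it was the most abundant secreted antagonist, and at most 0.0229 FPKM in the High libraries. Summed fragments, scaled to library size, were 796-fold lower in High (95% exact interval 220 to 6579, counting error only), and edgeR called the fall (adjusted p = 0.0021). The paralogs were low in both groups. Dkk1 had 0 and 1 fragments in High and 0 and 1 in Low, Dkk3 had 16 and 8 in High and 5 and 7 in Low, and Dkk4 and Dkkl1 had at most 4 in any library.

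The secreted Frizzled-related proteins, which bind Wnts outside the cell, did not pass the test. Sfrp2 was at 21.3 and 1.61 FPKM in the libraries labelled High, against 8.44 and 7.35 FPKM in those labelled Low, and its High values lay on either side of the Low values. Sfrp1 had 7.84 and 3.88 FPKM in High and 3.47 and 2.96 FPKM in Low. Sfrp4 was lower in both High libraries, at 0.629 and 0.207 FPKM, than in the Low libraries, at 1.03 and 1.54 FPKM. Sfrp5 and the Wnt-binding factor Wif1 had at most 5 fragments in any library. Summed over the 10 secreted antagonists, levels were 30.4 and 6.17 FPKM in High and 23.8 and 23.0 FPKM in Low. The leading antagonist was Sfrp2 in High library 1, Sfrp1 in High library 2 and Dkk2 in both Low libraries.

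Among the R-spondins, Rspo3 fell. Rspo3 (chromosome 10, 29452416 to 29535867, mm10) had 0 and 1 fragments in the libraries labelled High, against 32 and 75 in those labelled Low. Scaled to library size this was 109-fold lower in High (95% exact interval 19.1 to 4342, edgeR adjusted p = 0.0303). Its transcripts share 406 bases with another annotated gene, and strand handling in the counting is not given in the sources used here. Rspo2 had 91 and 3 fragments in High and 20 and 33 in Low, so that the Low libraries lay between the High ones. Rspo1 had 2 and 16 fragments in High and 3 and 2 in Low, and Rspo4 had 0 throughout. Kremen1, a cell-surface partner of some Dkk proteins, was at 9.90 and 10.7 FPKM in High and 13.1 and 12.3 FPKM in Low. Kremen2 had at most 4 fragments in any library.

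**Figure D4:**
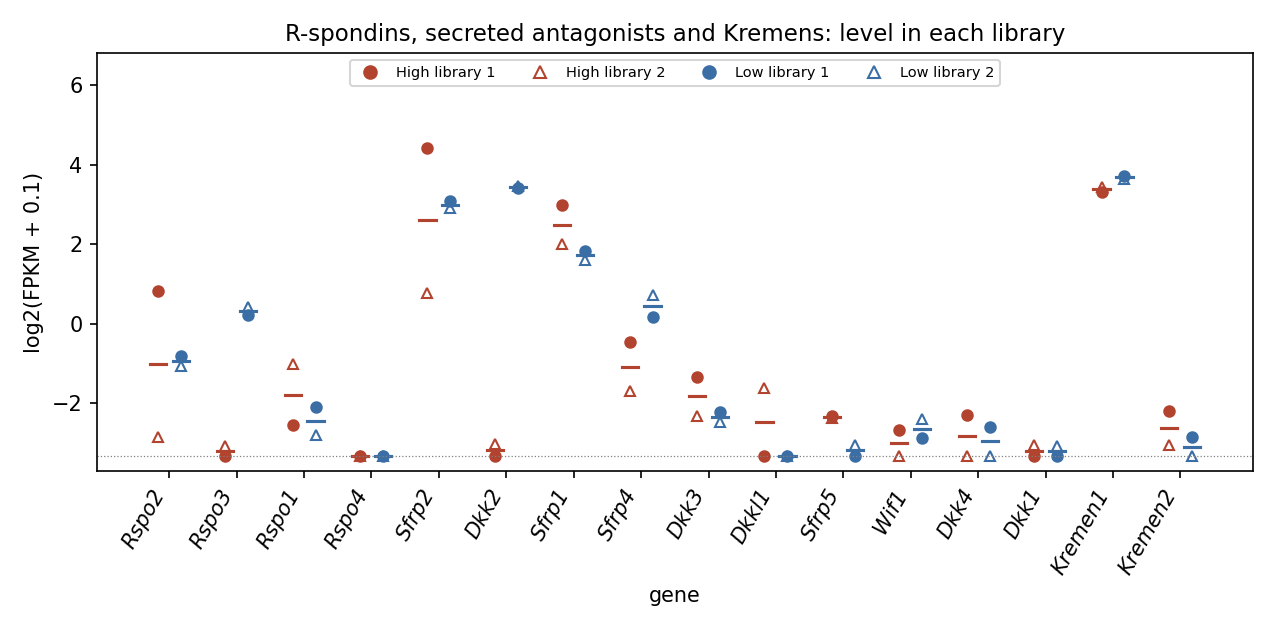
Level of R-spondins, secreted antagonists and Kremens in each library, as log2(FPKM + 0.1), ordered by mean level within each class. Filled circles and open triangles are libraries 1 and 2 of each group, short bars are means and the dotted line marks 0 FPKM. Dkk2 and Rspo3 lie at or near 0 in both High libraries, and Rspo2 and Sfrp2 lie high in High library 1 and low in High library 2.

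The High libraries were then compared with each other in a fit with 3 groups, where single High libraries borrow the spread of the Low duplicates and 1 residual degree of freedom is left. With 1 library on each side, the p-values compare these libraries and not the clones, against a variation of 17.2% where the High pair itself gave 42.4%, and they would be too small if the Low duplicates are technical. On that scale 9 of the 33 tested Wnt genes had an adjusted p under 0.05, 2 higher and 7 lower in library 2, beside 10.9% of all tested genes (4.46% higher and 6.47% lower). The genes lower in High library 2 were the ligands Wnt5a and Wnt5b, the receptor Ror2, the carrier Wls, Fzd1, Sfrp2 and Rspo2. The ligands higher in High library 2 were Wnt7b and Wnt10a. Sfrp2 had the smallest adjusted p, at 1.61 FPKM in library 2 and 21.3 FPKM in library 1, a log2 fold change of -3.73 ± 0.45 (SE, edgeR adjusted p = 2.18e-14). For Wnt5a the log2 fold change was -2.31 ± 0.35 (SE, adjusted p = 4.74e-09), and for Rspo2, with 3 fragments in library 2 and 91 in library 1, it was -5.38 ± 1.0 (SE, adjusted p = 2.82e-06). Wnt10a was 2.24-fold and Wnt7b 2.17-fold higher in library 2 (adjusted p = 0.00781 and 0.0170). DESeq2 made 8 of the 9 calls and did not call Ror2 (adjusted p = 0.139).

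Wnt4, Wnt6, Wnt7a and Porcn did not pass between the High libraries, with log2 fold changes of 0.38 ± 0.35, 0.47 ± 0.45, 0.78 ± 0.37 and 0.08 ± 0.37 (SE). The choice of these genes favours that result. They were called between the groups in a fit whose spread includes the difference between the High libraries. Markers of cell type moved along the same division. The median log2 fold change, High library 2 minus High library 1, was 1.65 over 11 epithelial markers and 0.02 over all tested genes. Krt7, for example, was at 1194 FPKM in library 2 and 354 FPKM in library 1. Over the 7 tested fibroblast markers the median was -2.25. Pdgfra was at 4.12 FPKM in library 2 and 36.3 FPKM in library 1, while Col1a2 was higher in library 2. The part of these marker differences in the Wnt genes was not tested. Between the groups, 0 of the 11 epithelial markers passed edgeR (6 at an unadjusted p under 0.05), and 1 of the 7 fibroblast markers fell, the serine protease Fap. Of all tested genes, 2.47% were called and 18.1% had an unadjusted p under 0.05. The log2 fold change was positive for 10 of the 11 epithelial markers and negative for 1, Krt18. It was negative for 5 of the 7 fibroblast markers and positive for 2, Pdgfra and Dcn. That of Dcn was 4.46 ± 1.38 (SE, edgeR adjusted p = 0.251).

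**Figure D5:**
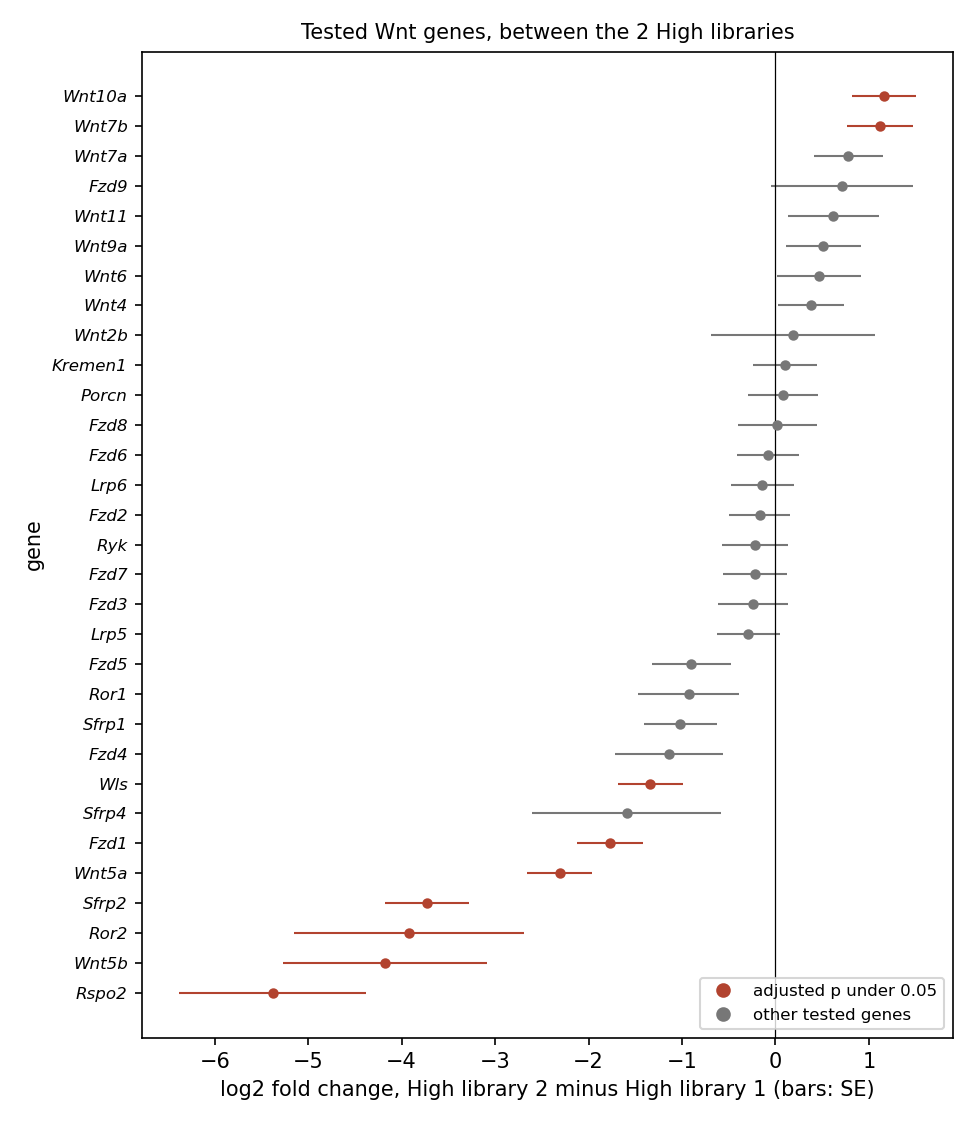
Log2 fold change of tested Wnt genes between the 2 libraries labelled High, with positive values higher in High library 2. Points are edgeR estimates from the fit with 3 groups, bars are SE and red marks an adjusted p under 0.05. Dkk2 and Rspo3 are left out because neither High library had more than 2 fragments. Wnt10a and Wnt7b lie to the right, and Wls, Fzd1, Wnt5a, Sfrp2, Ror2, Wnt5b and Rspo2 to the left.

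Other surface, cytoplasmic, nuclear and planar polarity genes of the pathway mostly did not pass the test. Of 67 further Wnt pathway genes in the table, 58 were tested, of which 2 rose, 0 fell and 56 did not pass, with a median log2 fold change of -0.05. These calls were 3.45% of those tested, beside 2.47% of all tested genes, and 12 had an unadjusted p under 0.05, where 18.1% of all tested genes did. The risers were Notum, the secreted enzyme that removes the lipid from Wnts, and Axin2, a feedback component of the destruction complex. Notum was at 69.2 and 61.3 FPKM in the libraries labelled High, against 4.74 and 3.36 FPKM in those labelled Low (log2 fold change 4.03 ± 0.29 (SE), edgeR adjusted p = 0.0021). Axin2 was at 7.61 and 5.50 FPKM in High and 0.954 and 1.15 FPKM in Low (2.65 ± 0.35, adjusted p = 0.0118). Beta-catenin, Ctnnb1, was at 559.7 and 432 FPKM in High and 391 and 422 FPKM in Low (log2 fold change 0.30 ± 0.23 (SE), adjusted p = 0.548).

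By class, 1 of 24 tested genes of the cytoplasmic machinery passed (Axin2) and 1 of 13 tested surface regulators (Notum). Among nuclear factors 0 of 12 passed edgeR (0 at an unadjusted p under 0.05), and among planar polarity genes 0 of 9 (1 at an unadjusted p under 0.05). With 2.47% of all tested genes called, counts of 0 or 1 in lists of these sizes set no class apart. The R-spondin receptor Lgr4 was at 45.4 and 7.38 FPKM in the libraries labelled High and 36.8 and 44.4 FPKM in those labelled Low, and did not pass (log2 fold change -0.61 ± 0.96 (SE), edgeR adjusted p = 0.802). Of the ubiquitin ligases that remove Frizzleds from the surface, Znrf3 was at 6.53 and 7.81 FPKM in High and 6.47 and 6.88 FPKM in Low, and its groups overlapped (log2 fold change 0.11 ± 0.24 (SE), adjusted p = 0.847). Rnf43 had 21 and 7 fragments in High and 0 in both Low libraries.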

How the data were processed

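The 4 libraries were made from total RNA with a directional kit, as the labels' protocols state. The submitters' processing notes list cutadapt 1.5, TopHat2 2.0.13, Cuffdiff 2.2.1 and mm10, while the annotation and strand setting were not given in the sources used here. Per the file headers, the authors deposited an estimated count of fragments and an FPKM value per gene and library, and 0 columns of other samples were present.

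Estimated counts, 99.18% of them whole within 1e-06, were rounded. The main test was edgeR 4.0.16 (R 4.3.3) quasi-likelihood with TMM scaling, a low-count filter with a minimum of 10, and Benjamini-Hochberg adjustment over 12987 genes, with 2 residual degrees of freedom. The deposited FPKM values were used for levels, and in limma 3.58.1 after log2(FPKM + 1) or log2(FPKM + 0.1). DESeq2 1.42.0, limma-voom, other scalings, no filter, a replicate block and leaving out each library were alternatives. DESeq2 was fitted to all 23361 genes, without the low-count filter. The edgeR test of High against Low was tried on simulated counts with known changes. The fit with 3 groups and the other methods were not. The genes and lists were chosen with earlier results of these data known. Folds are printed for Wnt genes with an unadjusted p under 0.05 between the groups or an adjusted p under 0.05 between the High libraries. Nothing in the labels states that the Low duplicates came from separate cultures; the p-values therefore reflect sample-to-sample spread alone, possibly technical. Intervals and floors cover counting error only. Shared stretches were found with blastn (at least 100 bases, 95% identity), and locations come from GENCODE vM21. Such stretches occurred in 11 of the 52 genes. Besides Wnt4, Lrp6 and Rspo3 these were Fzd5, Fzd6, Kremen2, Lrp5, Sfrp2, Wnt11, Wnt5a and Wnt7b. The longest was 619 bases, in Fzd5.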

Additional observations from a re-analysis of the deposited data

Results flagged for a closer look

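Between the 2 libraries labelled High, 9 of the 33 tested Wnt genes had an adjusted p under 0.05 in edgeR's fit with 3 groups. Of all tested genes, 10.9% did. With 1 library on each side, the spread comes only from the Low duplicates, which may be technical, so these p-values describe the 2 libraries and do not establish a difference between clones. Values are log2 fold changes, High library 2 minus High library 1. They were -5.38 for Rspo2 (adjusted p = 2.82e-06), -4.18 for Wnt5b (adjusted p = 0.00235), -3.92 for Ror2 (adjusted p = 0.0175), -3.73 for Sfrp2 (adjusted p = 2.18e-14) and -2.31 for Wnt5a (adjusted p = 4.74e-09). They were -1.77 for Fzd1 (adjusted p = 1.93e-05) and -1.34 for Wls (adjusted p = 0.00219). Wnt10a and Wnt7b went the other way, at 1.16 (adjusted p = 0.00781) and 1.12 (adjusted p = 0.0170). Each clone has 1 library, so a difference between clones and a difference between libraries cannot be told apart.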

How the results depend on the processing

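Over all genes, edgeR called 321, against 814 with no filter on low counts, 1161 with DESeq2 and 0 to 2446 with 1 library left out. Of the Wnt genes it called 6, against 11 with DESeq2 and 0 to 17 with 1 library left out. Of the 67 other pathway genes it called 2, against 4 with no filter, 6 with DESeq2 and 0 to 13 with 1 library left out. The counts of 0 came with either Low library out, the spread then coming from the High pair; there all genes at an unadjusted p under 0.05 numbered 1004 and 840, and the counts of 2226 and 2446 came with High library 1 or 2 out. Those fits have 1 library in a group, assumed to vary like the other group. Library numbers are names and do not pair the samples (correlation of deviations -0.139); with the numbers as a replicate block 469 genes and 7 Wnt genes were called, 5 of them shared with the 6, Porcn being lost. A crossed pairing, chosen after seeing the data, gave 94 genes and 5 Wnt genes, 4 of them shared with the 6, Rspo3 (adjusted p = 0.1) and Porcn (adjusted p = 0.0778) being lost. With 1 library left out the log2 fold change of Lgr4 ran from -2.45 to 0.17 and that of Znrf3 from -0.02 to 0.23; both turned sign without High library 2. Total-count scaling moved the median of all genes to 0.10. DESeq2 was given 23361 genes and 52 Wnt genes, against 12987 and 33 in edgeR. Its counts therefore differ from edgeR's in the genes entered as well as in the method. Dkk2, Rspo3, Wnt4 and Wnt6 were called in 11 of 13 alternatives other than the crossed pairing, Wnt7a in 10 and Porcn in 7. The causes of the other shifts were not tested.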
